A study of Mus musculus with 10 samples.

Results

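Small nucleolar RNAs (snoRNAs), their Cajal body relatives (scaRNAs) and the genes named as their hosts were followed in preleukemic stem and progenitor cells with and without miR-126. Members were chosen by name, as the rows of the count table named Snord, Snora, Scarna or Snhg, or Gas5, and selected on their summed count, which had to reach 10 over the 10 libraries. The rule took 121 of the 136 rows so named, out of 25078 rows in the table. They were 63 of 73 box C/D snoRNAs, 31 of 36 box H/ACA snoRNAs, 9 of 9 scaRNAs and 18 of 18 Snhg and Gas5 host genes. Of the 15 rows left out, 12 had no count in any library. The members nearest to the threshold were Snhg11, with 17 counts, and Scarna3a, with 22, and the rows just under it were Snora36b, with 9, and Snord90, with 8.

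The libraries came from LSK cells (Lin-Sca1+cKit+), a bone marrow fraction that holds hematopoietic stem cells and early progenitors. The 5 CM mice carried the Cbfb 56M/+ knock-in allele, which encodes the Cbfb-MYH11 (CM) fusion of inv(16) leukemia once Mx1-Cre has been switched on with poly(I:C). In the 5 CM/miR-126Δ/Δ mice this knock-in allele and Mx1-Cre were combined with 2 floxed miR-126 alleles that Cre removed. Mice of both genotypes received poly(I:C) from 6 to 8 weeks of age in 7 doses and were sampled 6 weeks after induction. The fusion, Cre and the poly(I:C) treatment were thus common to both groups. Mx1-Cre acts wherever interferon reaches, not only in blood stem cells, and recombination was not restricted to LSK cells. Each mouse gave 1 library of total RNA depleted of ribosomal RNA, with between 23649233 and 33202086 counts on genes.

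The deleted locus was read first. The Mir126a row held 4, 5, 0, 2 and 3 counts in CM mice 1 to 5 and no count in any of the 5 CM/miR-126Δ/Δ mice. Egfl7, the gene whose intron holds miR-126, was at 114 ± 20.0 CPM (SD, n = 5), the count scaled to a common library total with TMM factors, in CM and 107 ± 12.2 in CM/miR-126Δ/Δ. The marker genes of the sorted fraction were present in both genotypes, with Kit at 859 CPM in CM and 929 in CM/miR-126Δ/Δ, and Ly6a, which encodes Sca1, at 57.3 and 58.5.

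snoRNAs are short noncoding RNAs that guide the chemical modification of other RNAs in the nucleolus. Box C/D RNAs carry the C and D boxes, bind fibrillarin (Fbl), Nop56, Nop58 and Snu13, and guide ribose methylation. Box H/ACA RNAs end in an ACA box, bind dyskerin (Dkc1), Nop10, Nhp2 and Gar1, and guide the change of uridine to pseudouridine. scaRNAs share these boxes and act on spliceosomal RNAs in Cajal bodies. In mammals most of them are cut from introns of host genes, many of which encode ribosomal proteins or translation factors. Others, the small nucleolar RNA host genes (Snhg) and Gas5, make a spliced transcript with little coding potential. Several such hosts, Gas5 among them, belong to the 5′ terminal oligopyrimidine class, which begins with a run of pyrimidines, and their spliced transcripts are removed by nonsense-mediated decay.

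To show which host genes begin with such a run of pyrimidines and which do not, the start sites of the 5 hosts with the smallest p-values are printed, with those of Snhg7 and Snhg8, picked because they carry both marked features. Gas5 and Snhg17 each have another RefSeq start site, without the run, which is counted below but not printed. Each window runs from 40 bases before to 20 bases from the RefSeq start site (GRCm38.p6), on the strand of the gene. Capitals mark a run of pyrimidines (C or T) at least 5 bases long that begins at the start site, TATA lying 40 to 21 bases before it, or both.
Snhg12, chr4:132308638-132308697, plus strand: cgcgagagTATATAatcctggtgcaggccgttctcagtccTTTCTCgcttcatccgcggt
Gas5, chr1:161035126-161035185, plus strand: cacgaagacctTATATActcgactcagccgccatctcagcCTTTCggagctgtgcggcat
Snhg17, chr2:158361490-158361549, minus strand: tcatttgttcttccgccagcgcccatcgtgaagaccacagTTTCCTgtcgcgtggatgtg
Snhg5, chr9:88522878-88522937, minus strand: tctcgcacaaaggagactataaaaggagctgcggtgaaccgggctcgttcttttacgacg
Snhg15, chr11:6528741-6528800, minus strand: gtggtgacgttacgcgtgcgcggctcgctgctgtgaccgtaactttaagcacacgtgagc
Snhg7, chr2:26640225-26640284, minus strand: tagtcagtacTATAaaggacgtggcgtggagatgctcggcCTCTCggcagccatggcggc
Snhg8, chr3:123508317-123508376, minus strand: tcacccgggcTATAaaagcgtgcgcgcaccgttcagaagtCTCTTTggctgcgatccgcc

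A RefSeq start site was available for 16 of the host genes, with 18 start sites in all. The pyrimidine run began at 6 of the 18 sites (33.3%), against 4.44% of the 32851 start sites of all genes. TATA stood in the stated stretch at 5 of the 18 sites (27.8%), against 5.34% of all sites. CACGTG, the E-box, which reads the same on both strands, lay in the longer RefSeq promoter (250 bases before to 50 bases from the start) at 2 of the 18 sites (11.1%), those of Snhg15 and Snhg9, against 7.15% of all sites. In Snhg5 the letters TATA run 1 base past the stretch that was counted, so it was not among the 5. Of the 5 hosts with the smallest p-values, Snhg5 and Snhg15 lack the pyrimidine run. A match is only a description of these letters.

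For 5 members a RefSeq microRNA hairpin lies inside the annotated RNA, which gives part of its own sequence. In 4 of them the hairpin covers a box of the class, and these are printed, while that of the fifth, Snora34, covers none and is not. Snord33, a box C/D RNA in an intron of Rpl13a (chr7:45126918-45126945, minus strand), begins within a base of its 5′ end with a stretch whose capitals mark the C box.
Snord33, 5′ part: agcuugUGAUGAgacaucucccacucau
Scarna13, in an intron of Snhg10 (chr12:105031077-105031141, minus strand), and the similar pair Scarna3a (chr1:159340358-159340423, plus strand) and Scarna3b (chr12:80391614-80391677, minus strand) end with the ACA box, in capitals.
Scarna13, 3′ part: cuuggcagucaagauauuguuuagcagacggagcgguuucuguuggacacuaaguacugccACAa
Scarna3a, 3′ part: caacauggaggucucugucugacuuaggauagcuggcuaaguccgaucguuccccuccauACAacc
Scarna3b, 3′ part: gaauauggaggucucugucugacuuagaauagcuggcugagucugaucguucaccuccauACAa

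The snoRNAs were a small part of these libraries. All members together made up 0.123% ± 0.0152 (SD, n = 5) of each CM library and 0.112% ± 0.0311 of each CM/miR-126Δ/Δ library. Levels of different genes are set against each other as RPKM, the CPM per kilobase of transcript, computed from the counts and the annotated length, while the members described below for their abundance were picked by mean CPM, which favours longer RNAs. As RPKM, Scarna2, at 3325, and Scarna10, at 3234, which guide modification of spliceosomal RNAs, stood far above the other members. The next were Scarna9 at 281.5, Snora74a at 248.6 and Gas5 at 227.4. RPKM favours short rows, and the annotated lengths of Scarna2, Scarna10 and Scarna9 are 61, 71 and 42 bases, against 751 for Gas5. By mean CPM over all mice, Scarna10 was at 229.6, Scarna2 at 202.8, Gas5 at 170.7, Snora74a at 49.2 and Scarna9 at 11.8. Median RPKM was 12.9 for box C/D, 13.4 for box H/ACA, 40.3 for scaRNAs and 18.4 for the host genes. Annotated lengths ran from 28 to 221 bases for box C/D RNAs, from 61 to 198 for box H/ACA RNAs and from 42 to 275 for scaRNAs, while single reads were 51 bases long. A read from an unspliced intron and a read from the processed RNA within it therefore fall on the same row and cannot be told apart.

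Mice of one genotype differed widely in the summed level of each class. For box C/D RNAs the sums in CM mice 1 to 5 were 101.7, 148.7, 80.8, 121.5 and 132.2 CPM. In CM/miR-126Δ/Δ mice 1 to 5 they were 95.6, 115.9, 80.0, 156.9 and 89.9 CPM. Mouse 4 of the CM/miR-126Δ/Δ group held the highest box C/D sum of all 10, and the genotypes overlapped over nearly their whole range. The box H/ACA sums were 127 ± 29.6 CPM in CM and 112.5 ± 34.8 in CM/miR-126Δ/Δ, again highest in CM/miR-126Δ/Δ mouse 4 (171.1). The scaRNA sums, which Scarna2 and Scarna10 dominate, were 493 ± 113 and 484 ± 146 CPM, with the same mouse at 740.9 and the other 4 of its group between 393.5 and 462.4. The host gene sums were 490 ± 59.8 CPM in CM and 415 ± 59.7 in CM/miR-126Δ/Δ, with CM mouse 2 at 595.3 and CM/miR-126Δ/Δ mouse 4 at 513.4. RNA extracted from the 5 CM samples was at 34.3, 27.9, 26.5, 20.6 and 40.9 ng per µl, and from the 5 CM/miR-126Δ/Δ samples at 21.1, 20, 16.1, 29.5 and 18.2. Mouse 4 thus had the highest RNA concentration of the CM/miR-126Δ/Δ group. CM mouse 4, with the highest scaRNA sum of the CM group (666 CPM), had instead the lowest concentration of its group. The part of RNA concentration in the results was not tested. In such bulk samples, fewer cells of a type and less RNA per cell cannot be told apart.

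**Figure D1:**
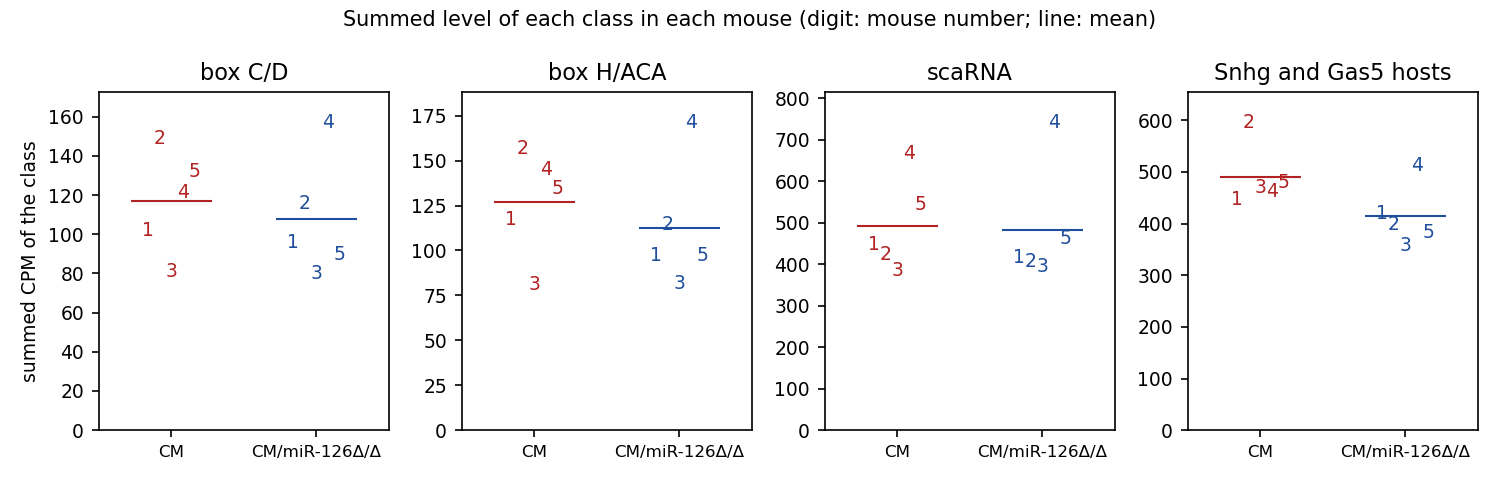
Summed CPM of the members of each class (vertical axis, from 0) in each mouse, with the mouse number as the symbol and a line at the mean of the 5 mice of a genotype. CM/miR-126Δ/Δ mouse 4 holds the highest box C/D, box H/ACA and scaRNA sums, and CM mouse 2 the highest host gene sum.

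To ask whether loss of miR-126 altered these RNAs in CM LSK cells, the edgeR quasi-likelihood test was fitted to all 18747 rows with a count. A call needed p at or below 0.01, a 1.5-fold change and a mean RPKM of at least 1. One member of 121, Snord111, met it on the higher side, and none on the lower. Without CM/miR-126Δ/Δ mouse 3 no member was called. Without CM mouse 2 or CM/miR-126Δ/Δ mouse 1 there were 2 on the higher side (1.65% of members), beside 0.218% and 0.436% of all rows in those fits. Without CM/miR-126Δ/Δ mouse 4 there were 2 on the lower side (1.65%), beside 0.336%. In the fit on all 10 mice, 0.224% of the 16065 rows with at least 10 summed counts were called higher and 0.112% lower. At an unadjusted p under 0.05, 4 members were higher and 5 lower in CM/miR-126Δ/Δ, beside 3.53% and 3.73% of those rows, so in this fit, on all 10 mice and without a replicate block, both counts (3.31% and 4.13% of the members) were near the background. No member had an adjusted p under 0.05 (lowest 0.585, edgeR with Benjamini-Hochberg adjustment over all rows tested), where 0.0124% of rows did. At an unadjusted p under 0.05, edgeR gave 9 members and DESeq2 gave 8. With a replicate block, edgeR gave 13 lower members (10.7%), beside 5.39% of all rows, and 3 higher (2.48%), beside 4.97%. The lower share was thus not near the background in the blocked fit. The values of 2 members, Snord111 and Snord19, were higher in every CM/miR-126Δ/Δ mouse than in any CM mouse, beside 0.654% of rows, and none were lower without overlap, beside 0.61%.

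Each class was then described by its counts and median. Of the box C/D RNAs, 28 had a higher and 35 a lower fitted level in CM/miR-126Δ/Δ, with a median log2 fold change of -0.09. Of the box H/ACA RNAs, 15 were higher and 16 lower (median -0.01), and none had p under 0.05. Of the scaRNAs, 7 of 9 were higher (median 0.23), 2 of them with p under 0.05, beside 3.53% of all rows with at least 10 summed counts. Of the Snhg and Gas5 genes, 13 of 18 were lower (median -0.26), and 5 of 18 (27.8%) were lower with p under 0.05, beside the 3.73% of all such rows and a median of -0.01 over them. With each mouse left out in turn, the class medians ran from -0.19 to 0.05 for box C/D, from -0.11 to 0.12 for box H/ACA, from 0.11 to 0.39 for scaRNAs and from -0.32 to -0.15 for the host genes. For box C/D, box H/ACA and the host genes the lowest value was the one without CM/miR-126Δ/Δ mouse 4 and the highest the one without CM mouse 2, so the box C/D and box H/ACA medians had no fixed sign. The host gene count rested on single mice. It was 2 without CM mouse 2, CM mouse 5 or CM/miR-126Δ/Δ mouse 3, and 3 without CM/miR-126Δ/Δ mouse 2 or mouse 5. The count of 5 lower members in all became 14 (11.6% of the members, beside 4.86% of all rows in that fit) without CM/miR-126Δ/Δ mouse 4, 2 without CM/miR-126Δ/Δ mouse 3 or CM mouse 2, and 3 without CM/miR-126Δ/Δ mouse 2 or CM mouse 5. The 4 higher members became 2 without CM mouse 1 or without CM/miR-126Δ/Δ mouse 2 or mouse 3.

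**Figure D2:**
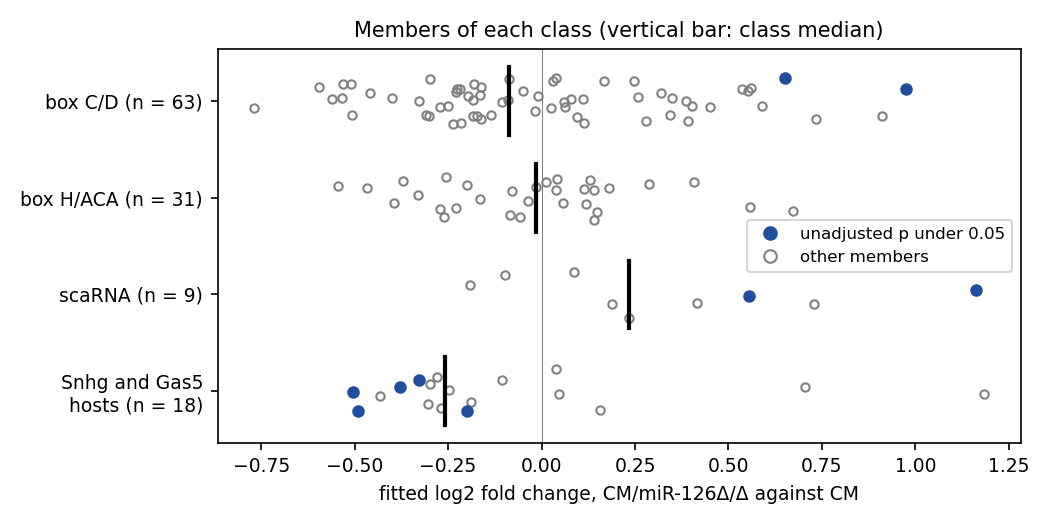
Fitted log2 fold change of CM/miR-126Δ/Δ against CM (horizontal axis) for each of the 121 members, by class, with a vertical bar at the class median and filled points for an unadjusted p under 0.05. All 5 filled host genes lie below 0, and the 4 filled snoRNAs and scaRNAs lie above it.

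Snord111, a box C/D RNA of 64 bases in an intron of Sf3b3 (mm10 chr8:110838535-110838598, minus strand), was the member that met the call. It was at 0.424, 0.364, 0.614, 0.437 and 0.594 CPM in CM mice 1 to 5, and at 0.779, 0.807, 1.31, 0.871 and 1.03 CPM in CM/miR-126Δ/Δ mice 1 to 5. Every CM/miR-126Δ/Δ mouse lay above every CM mouse, although the counts behind these values were only 11 to 18 in CM and 20 to 30 in CM/miR-126Δ/Δ. The log2 fold change of Snord111 was 0.97 ± 0.27 (SE), with p = 0.0029 and an adjusted p of 0.585 (edgeR) and a two-sided exact permutation p over the mice of 0.00794, the smallest that 5 mice against 5 can give. Without CM/miR-126Δ/Δ mouse 3 the log2 fold change of Snord111 was 0.84 and its p passed the limit of the call. Its host Sf3b3, a spliceosomal protein gene, was at 477.5 ± 23.9 CPM in CM and 460.5 ± 33.1 in the other genotype (log2 fold change -0.05, adjusted p = 0.874).

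Snord19, a box C/D RNA of 54 bases in an intron of Gnl3, also separated the genotypes (mm10 chr14:31016219-31016272, minus strand). It was at 0.606, 1.19, 1.23, 0.907 and 1.12 CPM in CM mice 1 to 5, and at 1.41, 1.74, 1.39, 1.78 and 1.61 CPM in CM/miR-126Δ/Δ mice 1 to 5. The lowest CM/miR-126Δ/Δ value, 1.39, was above the highest CM value, 1.23. The log2 fold change of Snord19 was 0.65 ± 0.24 (SE), with p = 0.0148 and an adjusted p of 0.737 (edgeR) and an exact permutation p of 0.00794. Gnl3, which encodes the nucleolar GTPase nucleostemin, lay on the other side of 0, at 123.5 ± 10.1 CPM in CM and 102.5 ± 8.39 in CM/miR-126Δ/Δ (log2 fold change -0.27, adjusted p = 0.514, exact permutation p = 0.0238).

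A pair of scaRNAs had p under 0.05, both higher in CM/miR-126Δ/Δ. Scarna9, in an intron of Cep295, was at 5.24, 13.3, 9.66, 8.03 and 11.7 CPM in CM mice 1 to 5, and at 8.46, 15.02, 16.1, 15.5 and 15.2 CPM in CM/miR-126Δ/Δ mice 1 to 5. Mouse 1 was the lowest of each group, and the other 4 CM/miR-126Δ/Δ mice lay above all CM mice (log2 fold change 0.55 ± 0.23 (SE), p = 0.0273 by edgeR, adjusted p = 0.746, exact permutation p = 0.0635). Scarna8, in Haus6, was at 0.144 ± 0.0331 CPM in CM and 0.328 ± 0.201 in CM/miR-126Δ/Δ (log2 fold change 1.16, adjusted p = 0.746, exact permutation p = 0.0794), on 61 counts in all, with CM/miR-126Δ/Δ mice 2 and 3 high. The hosts Cep295 and Haus6 had log2 fold changes of 0.11 and 0.08.

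**Figure D3:**
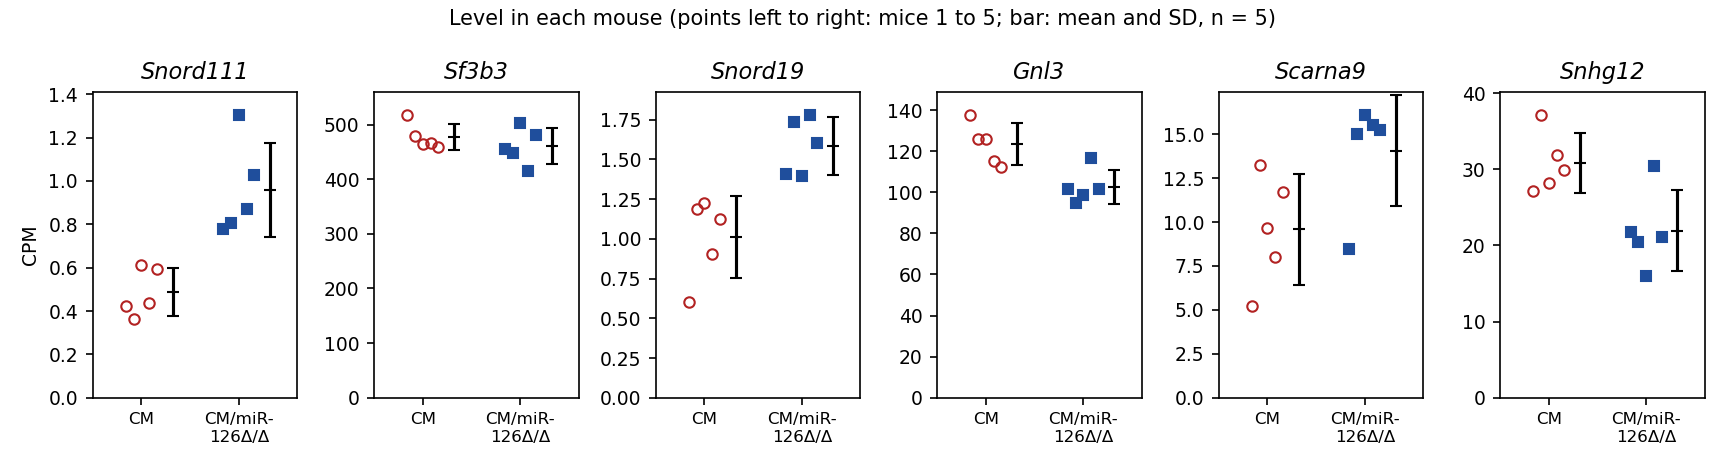
CPM (vertical axes, from 0) of Snord111 and its host Sf3b3, Snord19 and its host Gnl3, Scarna9 and Snhg12 in mice 1 to 5 of each genotype, with the mean and SD of the 5 mice at the right of each group. Snord111 and Snord19 separate the genotypes, Scarna9 and Snhg12 overlap through a single CM/miR-126Δ/Δ mouse each, and Sf3b3 does not follow Snord111.

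The abundant scaRNAs lay close to equal between the genotypes or varied with the mouse. Scarna2, which has no host row, was at 197 ± 26.1 CPM in CM and 209 ± 23.6 in CM/miR-126Δ/Δ (log2 fold change 0.09 ± 0.10, SE). Scarna10, in an intron of the condensin gene Ncapd2, was at 206.7, 182.1, 183.3, 382.8 and 269.4 CPM in CM mice 1 to 5, and at 170.0, 156.2, 136.8, 414.0 and 195.2 CPM in CM/miR-126Δ/Δ mice 1 to 5. Mouse 4 of each genotype was by far the highest, and the fitted difference (-0.19 ± 0.28, SE) was smaller than its error. Scarna6, in Atg16l1, had the same pair of high mice, at 15.02 CPM in CM mouse 4 and 18.3 in CM/miR-126Δ/Δ mouse 4, with the other 8 between 5.93 and 11.0.

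Among box C/D RNAs, Snord17, in Snx5, was at 15.7 ± 3.82 CPM in CM and 15.7 ± 6.90 in CM/miR-126Δ/Δ, and Snord22, in Snhg1, at 12.3 ± 3.35 and 10.1 ± 4.00. Snord118, the U8 snoRNA, which is needed to make the 5.8S and 28S ribosomal RNAs and is transcribed from its own promoter, was the most uneven member of those named. It was at 6.90, 9.72, 0.737, 10.1 and 11.4 CPM in CM mice 1 to 5, and at 5.04, 5.33, 0.435, 15.5 and 0.494 CPM in CM/miR-126Δ/Δ mice 1 to 5. CM mouse 3 and CM/miR-126Δ/Δ mice 3 and 5 thus held under 1 CPM, while the other 7 held between 5.04 and 15.5, so the split ran across the genotypes (log2 fold change -0.53 ± 0.75, SE, adjusted p = 0.877). The split was not particular to Snord118. These same mice, in that order, were lowest for the intronic Snord110, at 0.164, 0.479 and 0.288 CPM, the others being between 1.15 and 1.94. They were also lowest for the box H/ACA RNA Snora31, at 1.68, 0.740 and 1.15 CPM, the others being between 4.30 and 12.4. U3, the other long box C/D RNA needed for early cleavage of the ribosomal precursor, is annotated as Rnu3a outside the naming rule and showed no such split, with 37.4 CPM in CM mouse 3, 52.9 in CM/miR-126Δ/Δ mouse 3 and 55.4 in CM/miR-126Δ/Δ mouse 5. On the lower side, Snord14c, in the chaperone gene Hspa8, was at 3.90 ± 1.72 CPM in CM and 2.74 ± 0.232 in CM/miR-126Δ/Δ (adjusted p = 0.757), its CM mean raised by CM mouse 2 at 6.94. Snord45b, in Rabggtb, was at 0.690 ± 0.0859 and 0.466 ± 0.192 CPM (adjusted p = 0.766) and Snord96a, in the ribosome-bound Rack1, at 3.12 ± 0.517 and 2.36 ± 0.569 (adjusted p = 0.764). On the higher side, Snord71, in the adaptor protein gene Ap1g1, was at 0.403 ± 0.129 CPM in CM and 0.602 ± 0.137 in CM/miR-126Δ/Δ (log2 fold change 0.59, adjusted p = 0.766). Copies of Snord14, Snord15, Snord1 and Snord88 resemble one another closely, and how reads were shared among them is uncertain.

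Among box H/ACA RNAs, Snora74a, held by Snhg4, had the highest level as RPKM (248.6) and as CPM, at 53.1 ± 13.3 CPM in CM and 45.3 ± 17.8 in CM/miR-126Δ/Δ. Snora7a, in Rpl32, was at 7.82 ± 1.62 and 6.22 ± 1.79 CPM and Snora65, in Rpl12, at 3.32 ± 0.547 and 2.52 ± 0.829 (adjusted p = 0.766 for each). Snora78, in Snhg9, was at 6.95 ± 1.74 CPM in CM and 5.76 ± 1.31 in CM/miR-126Δ/Δ (log2 fold change -0.27, adjusted p = 0.766). On the higher side, Snora47, in Zbed3, was at 0.513 ± 0.181 and 0.687 ± 0.0938 CPM (log2 fold change 0.41, adjusted p = 0.766), beside a host at 37.4 and 38.4. Snora30, in the chromatin remodeler gene Srcap, was at 0.571 ± 0.0712 CPM in CM and 0.843 ± 0.372 in CM/miR-126Δ/Δ (adjusted p = 0.766), and the latter mean was raised by mouse 5 at 1.48.

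Most of the noncoding host genes had lower values in CM/miR-126Δ/Δ. Snhg12, which holds Snora16a, Snora44, Snora61 and Snord99, was at 27.1, 37.2, 28.2, 31.9 and 29.9 CPM in CM mice 1 to 5, and at 21.8, 20.4, 15.9, 30.4 and 21.2 CPM in CM/miR-126Δ/Δ mice 1 to 5. Only CM/miR-126Δ/Δ mouse 4 reached the CM range. The log2 fold change of Snhg12 was -0.49 ± 0.14 (SE), with p = 0.00394 and an adjusted p of 0.612 (edgeR) and an exact permutation p of 0.0318. This is under 1.5-fold, so Snhg12 was not called.

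Snhg15, for which the table has no snoRNA row, was at 13.6, 17.9, 11.8, 14.5 and 14.3 CPM in CM mice 1 to 5, and at 10.1, 11.2, 6.27, 13.9 and 9.47 CPM in CM/miR-126Δ/Δ mice 1 to 5. The log2 fold change of Snhg15 was -0.50 ± 0.17 (SE), with p = 0.0114 (edgeR) and an exact permutation p of 0.0238. Here too only CM/miR-126Δ/Δ mouse 4 lay within the CM range.

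Snhg17 was at 35.6 ± 4.87 CPM in CM and 28.4 ± 5.23 in CM/miR-126Δ/Δ (log2 fold change -0.33 ± 0.13, SE, adjusted p = 0.746, exact permutation p = 0.0556), and Snhg5 at 44.5 ± 6.04 and 34.2 ± 10.3 (-0.38 ± 0.17, adjusted p = 0.748, exact permutation p = 0.103). Gas5, a growth-arrest transcript and the host with the highest level as RPKM (227.4) and as CPM, was at 171.7, 218.3, 181.0, 161.1 and 180.6 CPM in CM mice 1 to 5, and at 150.3, 151.9, 148.6, 193.8 and 150.2 CPM in CM/miR-126Δ/Δ mice 1 to 5. For Gas5, 4 of the 5 CM/miR-126Δ/Δ mice lay between 148.6 and 151.9, below every CM mouse, and mouse 4 lay above 4 of the 5 CM mice. The log2 fold change of Gas5 was -0.20 ± 0.09 (SE), with p = 0.0468 (edgeR) and an exact permutation p of 0.135. Snhg1 was at 55.0 ± 11.6 and 44.5 ± 12.7 CPM (log2 fold change -0.30, adjusted p = 0.766). Snhg4 and Snhg7 had log2 fold changes of 0.05 and 0.04 and so did not share the lower values, and Snhg11, Snhg14 and Snhg18 were at or under 0.142 CPM in either genotype.

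**Figure D4:**
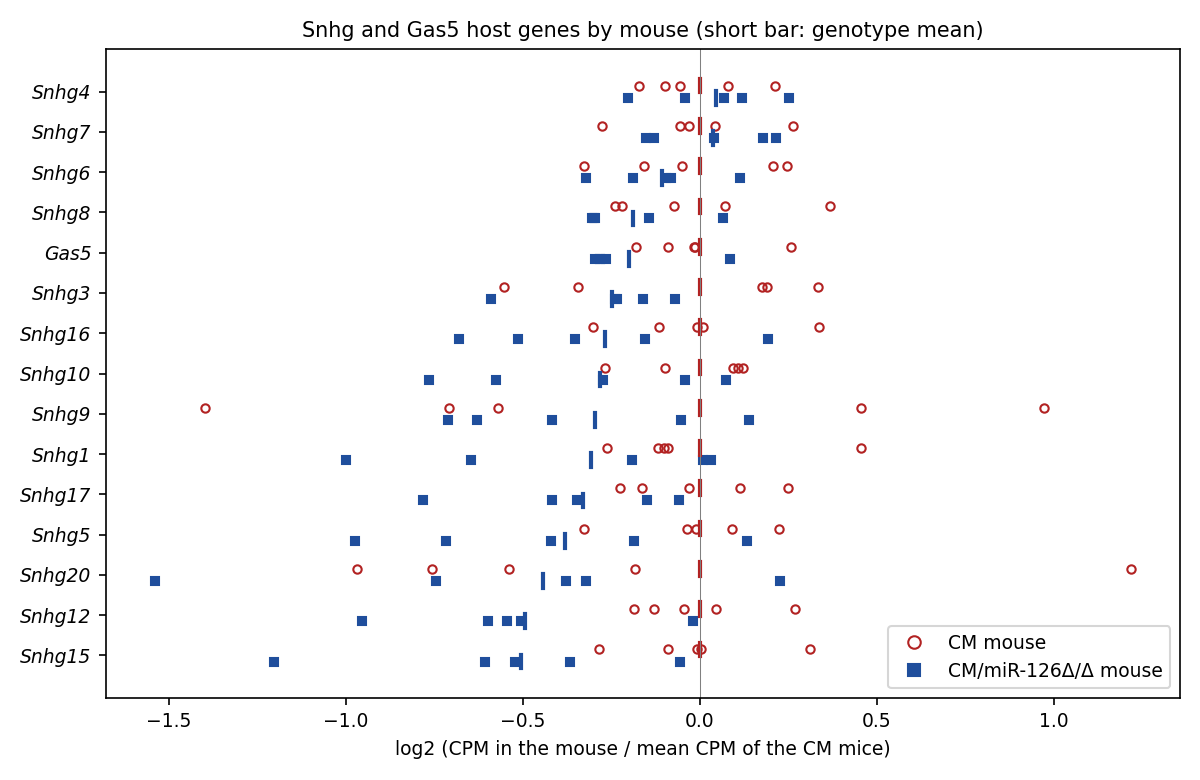
Level of each Snhg gene and Gas5 with at least 100 summed counts in each mouse, as log2 of its CPM over the mean CPM of the 5 CM mice (horizontal axis), with short bars at the log2 of each genotype's mean. For Snhg12, Snhg15 and Gas5, 4 CM/miR-126Δ/Δ mice lie below all CM mice, while Snhg4 and Snhg7 are spread about 0.

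The naming rule leaves out 4 noncoding host genes that carry other names, and these were picked out after their values were seen. Zfas1, the host of Snord12, was at 48.4, 66.2, 59.6, 48.9 and 49.5 CPM in CM mice 1 to 5, and at 45.1, 38.9, 42.0, 47.4 and 40.9 CPM in CM/miR-126Δ/Δ mice 1 to 5 (log2 fold change -0.35, adjusted p = 0.525, exact permutation p = 0.00794). The row 1110038B12Rik, the host of Snord52, was at 38.3 ± 2.77 CPM in CM and 27.5 ± 3.75 in CM/miR-126Δ/Δ (log2 fold change -0.48, adjusted p = 0.193 by edgeR, exact permutation p = 0.00794). For both rows every CM/miR-126Δ/Δ mouse lay below every CM mouse, mouse 4 included. Among all rows with at least 10 summed counts, 0.61% were lower without overlap in this way. The row 2410006H16Rik, which holds Snord49a, Snord49b and Snord65, was at 62.0 ± 9.85 and 51.8 ± 11.9 CPM (adjusted p = 0.766), and 2700038G22Rik, which holds Snord93, at 6.03 ± 2.23 and 7.13 ± 2.46. Neither Zfas1 nor 1110038B12Rik was called, since each differed by under 1.5-fold.

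Intronic RNAs were then set beside their hosts. A host row that contains the RNA on the same strand was found for 97 of the 103 snoRNAs and scaRNAs, in 72 host genes. In 65 pairs the RNA and host had fitted differences of the same sign (47 both lower, 18 both higher), in 29 the host was lower and the RNA higher, and in 3 the reverse. Across the 97 pairs, which share the same libraries and in part the same hosts, Pearson's r of the log2 fold changes was 0.33 and Spearman's rho 0.33. For the 84 pairs whose RNA had at least 100 counts they were 0.24 and 0.23. Only 19 of the 97 RNAs stood at a higher RPKM than their host row, led by Scarna13 in Snhg10, Scarna10 in Ncapd2 and Scarna9 in Cep295, and the median ratio of RNA to host was 0.273.

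The intronic RNAs were then divided by the kind of host, a split made after the values were seen. Of the 30 RNAs from ribosomal protein genes, 26 were lower and 4 higher in CM/miR-126Δ/Δ (median log2 fold change -0.16), and 20 of their 21 hosts were lower (median -0.12). Of the 16065 rows with at least 10 summed counts, 8689 were lower and 7376 higher. With p under 0.05, 4 of the 21 ribosomal protein hosts, 4 of the 13 noncoding hosts and 5 of the 38 other hosts were lower, beside 3.73% of all rows. None of these 30 RNAs had p under 0.05 itself. Ribosomal protein genes have many near-identical processed copies, so the levels of some host rows, such as Rpl12 at 19.9 RPKM beside Rpl32 at 638, are uncertain. Of the 20 RNAs from noncoding hosts, 10 were higher and 10 lower (median -0.00), while 10 of the 13 hosts were lower (median -0.27). The RNAs of Snhg12 had log2 fold changes of 0.14 (Snora16a), 0.11 (Snora44), 0.04 (Snora61) and -0.30 (Snord99), against -0.49 for the host itself. Likewise Snord12 was at 0.25 and Snord52 at 0.26, beside hosts at -0.35 and -0.48, each RNA within its error.

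Of the 47 RNAs from other protein-coding hosts, 33 were higher and 14 lower (median 0.15), beside 7376 higher of the 16065 rows with at least 10 summed counts. All 4 RNAs with p under 0.05 were in this group and were higher, beside 3.53% of those rows. The 38 hosts of the 47 RNAs had a median of -0.09 and a median span of 14740 bases, against 3034 for ribosomal protein hosts and 2347 for noncoding hosts. Over the 97 pairs the log2 fold change of the RNA had a Spearman's rho of 0.53 with the span of the host and of -0.47 with the summed count of the RNA. RNAs from longer hosts and RNAs with fewer counts thus tended to have the higher fitted values, and the part of unspliced host RNA in these rows was not tested.

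**Figure D5:**
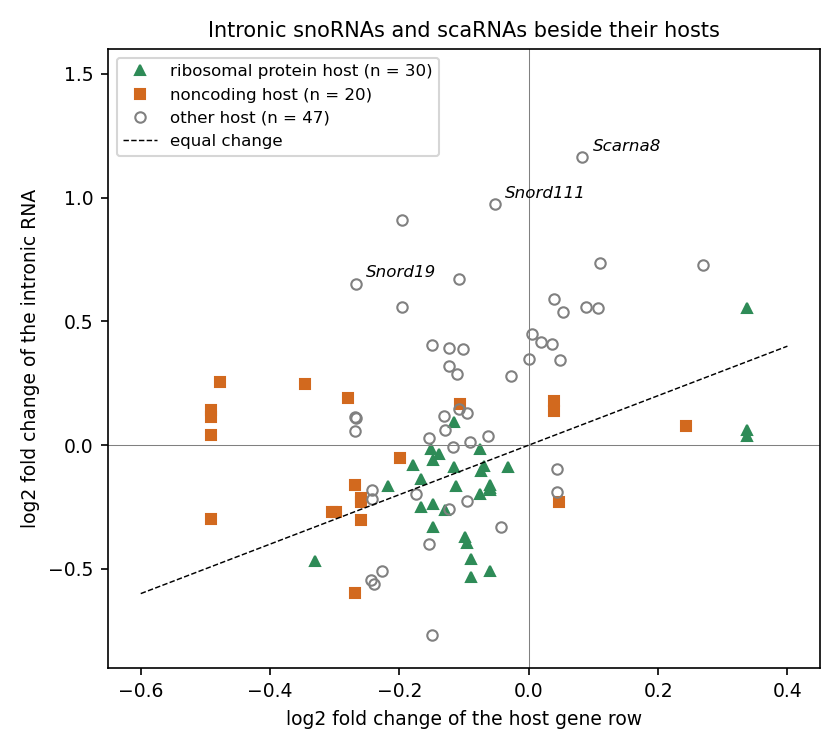
Log2 fold change of each of 97 intronic snoRNAs and scaRNAs (vertical axis) against that of its host gene row (horizontal axis), CM/miR-126Δ/Δ against CM, by kind of host, with the dashed line at equal change. RNAs of ribosomal protein hosts lie mostly in the lower left, RNAs of noncoding hosts are spread about 0 while most of those hosts are left of 0, and Snord111, Snord19 and Scarna8 lie well above the line.

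Of the genes that build or process snoRNPs, all 8 core proteins had lower fitted levels in CM/miR-126Δ/Δ (median log2 fold change -0.18), 3 of them with p under 0.05. Of the 16065 rows with at least 10 summed counts, 8689 were lower, and 3.73% were lower with p under 0.05. For the box C/D particle, Nop58 was at 224.8, 214.6, 202.8, 187.8 and 181.4 CPM in CM mice 1 to 5, and at 172.5, 173.7, 183.2, 181.5 and 172.3 CPM in CM/miR-126Δ/Δ mice 1 to 5. Mice 3 and 4 of the CM/miR-126Δ/Δ group were just inside the CM range (log2 fold change -0.20 ± 0.06, SE, adjusted p = 0.661, exact permutation p = 0.0238), and Nop58, itself host to Snord11 and Snord70, fell short of 1.5-fold. Nop56, host to Snord110 and Snord57, was at 147 ± 14.5 and 124 ± 15.8 CPM (adjusted p = 0.746), the methyltransferase gene Fbl at 8.64 ± 1.28 and 7.19 ± 0.850 (adjusted p = 0.764), and Snu13 at 9.94 ± 1.26 and 9.36 ± 0.632 (adjusted p = 0.861). For the box H/ACA particle, Nop10 was at 58.1 ± 8.22 and 49.0 ± 3.64 CPM (adjusted p = 0.746) and the pseudouridine synthase gene Dkc1 at 168 ± 15.6 and 152.5 ± 9.88 (adjusted p = 0.764). Nhp2 and Gar1 had log2 fold changes of -0.16 and -0.15.

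Over the 5 lists of snoRNP proteins, assembly factors, intron and 3′ end processing factors and nonsense-mediated decay factors, 40 of 49 genes were lower and 9 higher (median -0.09), 8 were lower and none higher with p under 0.05, beside 3.73% and 3.53% of all such rows, and none was called. Beside the core proteins these 8 were Nolc1, which escorts snoRNPs, the exosome subunits Exosc1, Exosc2 and Exosc8, and Smg5, a decay factor (log2 fold changes from -0.18 to -0.13). The count of 8 also moved with single mice, falling to 1 without CM mouse 1, to 4 without CM mouse 3, CM mouse 4 or CM/miR-126Δ/Δ mouse 2, and to 5 without CM mouse 2 or without CM/miR-126Δ/Δ mouse 1 or mouse 5.

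Markers of other cell types were read beside these results. Of the stem cell markers, 2 of 10 were higher with p under 0.05, beside 3.53% of all rows with at least 10 summed counts. These 2 were the transcription factor genes Hlf (581 ± 54.9 CPM in CM and 718 ± 89.7 in CM/miR-126Δ/Δ, adjusted p = 0.661) and Mecom (106 ± 16.5 and 125 ± 15.2, adjusted p = 0.748). Of 8 myeloid markers, 6 had higher and 2 lower fitted levels (median log2 fold change 0.22). With p under 0.05, 1 of the 8 was lower, beside 3.73% of all such rows. It was the integrin gene Itgam (88.1 ± 26.5 and 69.1 ± 5.13, adjusted p = 0.746). The summed myeloid list, of which Mpo was the most abundant gene at a mean of 853.1 RPKM (2172 CPM), was at 2493, 1716, 3429, 2680 and 2291 CPM in CM mice 1 to 5, and at 1440, 2371, 4118, 2127 and 2742 in CM/miR-126Δ/Δ mice 1 to 5. That sum hides the neutrophil markers, named here after their values were seen. S100a8 was at 72.2 CPM in CM/miR-126Δ/Δ mouse 4, between 0.479 and 5.85 in the other 4 mice of that genotype and between 0.727 and 27.6 in CM mice. S100a9 was at 109.3 CPM in CM/miR-126Δ/Δ mouse 4, between 0.566 and 8.40 in the other 4 and between 0.817 and 41.8 in CM mice. Ly6g was at 0.831 CPM in that mouse, at or under 0.0807 in the other 4 and at or under 0.330 in CM mice. The mouse with the highest snoRNA and scaRNA sums thus also held the highest levels of these 3 genes, and their part in its values was not tested. The T cell marker Cd3e was low, at 1.12 CPM in CM and 0.981 in CM/miR-126Δ/Δ. The T and NK cell list summed to between 0.823 and 8.83 CPM per mouse and was highest in CM/miR-126Δ/Δ mouse 4. The erythroid list, led by Alas2, summed to between 12.9 and 75.8 CPM, with Hba-a1, Hba-a2 and Hbb-bt listed at 0 in every library. No erythroid, megakaryocyte, mast cell, T cell or stromal marker had p under 0.05 in either direction. The part of the stem and myeloid markers in the snoRNA and host values was not tested.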

How the data were processed

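Total RNA of sorted LSK cells was depleted of ribosomal RNA (KAPA RNA HyperPrep with RiboErase) and sequenced as single reads of 51 bases. Per the study's methods, reads were trimmed (Trimmomatic 0.38, FASTP 0.19.4), aligned to mm10 with TopHat 2.0.8 and counted on RefSeq genes with HTSeq 0.6.1. The strand setting of the counting is not given in the sources used here, so reads of a gene and of an antisense neighbour cannot be told apart. The deposited values used here are raw counts per gene, made by the authors, with the annotated exon length of each row. The second deposited table, whose values the authors labelled RPKM, was not used. No row lacked a gene name.

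Counts were fitted with edgeR 4.0.16 (R 4.3.3) in the quasi-likelihood form of edgeR 3, with TMM factors, on the 18747 rows with at least 1 count in any library, with Benjamini-Hochberg adjustment over those rows. The thresholds of the call (p at or below 0.01, 1.5-fold, mean RPKM of at least 1 in either genotype) follow the study. CPM and RPKM here use TMM-scaled library totals. Counting error was taken up in the fit, and 3 counts correspond to 0.0904 to 0.127 CPM. Each replicate is a separate mouse. No library was a copy of another. RefSeq windows and hairpins are of GRCm38.p6.

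Members and lists were chosen with earlier results of these data known, and classes and lists are described by counts and medians without a test. Genes named are, per class, the 3 members with the highest mean CPM and the 3 smallest p-values in each direction, called members, their hosts, and snoRNP genes. Others were named after their values were seen. Alternatives were RLE size factors, DESeq2 1.42.0, the edgeR 4 form, robust dispersion, other filters, Rn45s left out, a replicate block, and leaving out each library in turn. No gene set test was run.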

Additional observations from a re-analysis of the deposited data

Results flagged for a closer look

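The groups of 5 mice looked at were each named member, each named host and each class sum in each genotype. In 11 of these 110 groups, 1 mouse lay apart from the other 4 by more than Dixon's critical value. About 1 in 20 groups, or 5.5, would do so by chance. CM/miR-126Δ/Δ mouse 4 was the mouse apart for Gas5 (193.8 CPM, the others 148.6 to 151.9), Scarna10 (414, the others 136.8 to 195.2), Scarna6 (18.25, the others 5.93 to 8.92), Snora74a (76.01, the others 31.6 to 43.7), Snord17 (27.55, the others 10.8 to 14.7) and the summed scaRNAs (740.9, the others 393.5 to 462.4). CM mouse 2 was apart for Snhg1 (75.34 CPM, the others 45.9 to 51.7), Snord14c (6.939, the others 2.82 to 3.596) and the summed host genes (595.3, the others 446.8 to 478.8). CM/miR-126Δ/Δ mouse 1 was apart and low for Scarna9 (8.456 CPM, the others 15.02 to 16.1), and CM/miR-126Δ/Δ mouse 5 apart and high for Snora30 (1.482, the others 0.593 to 0.848). The results with and without CM mouse 2 and CM/miR-126Δ/Δ mouse 4 are given with the processing.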

How the results depend on the processing

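Of 230 values of the counts and class medians under an alternative, 194 stayed within their limits (a count within 1.5 times its value, a median within 1 SD of the medians per mouse) and 36 moved, and the cause was not tested. Members called higher (1) were 2 on rows with a mean RPKM of at least 1, 0 by an adjusted p under 0.05, and 0 to 2 when each mouse was left out in turn. Members called lower (0) were 0 to 2 with a mouse left out. Members higher with p under 0.05 (4) ranged from 2 to 6, and lower (5) from 2 to 14, and the latter were 3 with filterByExpr and 3 on rows with a mean RPKM of at least 1. Lower Snhg and Gas5 rows (5) ranged from 2 to 6 and were 3 under each of these filters, which fit fewer rows. Lower snoRNP and processing genes (8) ranged from 1 to 11 and were 4 under each filter, and higher ones stayed at 0 with any single mouse left out. A setting chosen after seeing the data left out both CM mouse 2 and CM/miR-126Δ/Δ mouse 4. There 12 members were lower with p under 0.05 (9.92% of members, beside 4.75% of all rows in that fit). In that setting 1 member was called lower (0.826%, beside 0.473%), and 1 snoRNP or processing gene was higher. Class medians with a mouse left out ran from -0.19 to 0.05 (box C/D), -0.11 to 0.12 (box H/ACA), 0.11 to 0.39 (scaRNA) and -0.32 to -0.15 (host genes), so the first 2 crossed 0 within that limit.

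Among 1012 values of named members and hosts, 16 reversed, 46 lost and 44 gained an unadjusted p under 0.05. The log2 fold change of Snord17 (-0.01) was 0.0003 with RLE factors, 0.0005 with DESeq2, 0.0107 with filterByExpr and 0.0135 on rows with a mean RPKM of at least 1, and ran from -0.3028 to 0.1377 with mice left out. With mice left out, Scarna10 ran from -0.6472 to 0.0395 (above 0 without CM mouse 4), Scarna6 from -0.4832 to 0.0874 (without CM mouse 4), Snhg9 from -0.4789 to 0.0932 (without CM mouse 2), Snhg4 from -0.0083 (without CM/miR-126Δ/Δ mouse 3) to 0.1172 and Zbed3 from -0.0045 (without CM mouse 3) to 0.1067.

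Replicate numbers are shared by the genotypes. Mice of the same number deviated together in 4 of 5 pairs (r of 0.43, 0.29, 0.18, 0.16 and -0.00), and 5 of 10 libraries correlated best with their own number. Whether the numbers pair the mice is thus uncertain. The main fit used no block, since the last of these pairs did not deviate together. With a replicate block 13 members were lower with p under 0.05 instead of 5 (10.7% of members, beside 5.39% of all rows in that fit), the lowest adjusted p of a member was 0.118, and of the 9 members with p under 0.05 in either direction, 8 were shared with the 16 under the block. Depth limits the rare RNAs: 16 members had under 100 counts in all.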

Other observations

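Other noncoding RNAs of the same nuclear pathways also varied between mice. Terc, the telomerase RNA, which ends in a box H/ACA domain, was at 32.4 ± 5.86 CPM (SD, n = 5) in CM and 32.1 ± 6.47 in CM/miR-126Δ/Δ, with CM/miR-126Δ/Δ mouse 4 highest at 43.3. Rmrp, the RNA of RNase MRP, which cleaves the ribosomal precursor, was at 1418, 1502, 1011, 1771 and 1428 CPM in CM mice 1 to 5, and at 1072, 1233, 1010, 2008 and 1105 in CM/miR-126Δ/Δ mice 1 to 5. U3 (Rnu3a) was at 58.1 ± 16.98 CPM in CM and 59.0 ± 27.8 in CM/miR-126Δ/Δ, with CM/miR-126Δ/Δ mouse 4 at 103.5 and mouse 1 lowest of all 10 at 26.5. All of these overlapped between the genotypes, and mouse 4 of each genotype was the highest of its group for each.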
